A study of Arabidopsis thaliana with 6 samples.

Results

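The plant defensin (PDF) family was followed in leaf RNA of the Arabidopsis thaliana mutant des1-1 and its wild type. Members were the probe sets whose single gene symbol in the array's annotation begins with PDF, then 1, 2 or 3, then a point, which gave 5 of the 22746 probe sets tested, for PDF1.2, PDF1.2b, PDF1.4, PDF2.1 and PDF2.5. The family has 13 genes in the TAIR10.1 reference table when older names are counted. Of these, 10 had a probe set annotated to 1 gene, 5 of them under an LCR symbol (low-molecular-weight cysteine-rich), and PDF1.2c, PDF1.3 and PDF1.5 were not analysed here.

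Both groups were soil-grown plants aged 3 weeks, with 3 biological replicates each. The wild type was accession Col-0, and des1-1 is the line labelled SALK_03855, a single insertion line, with a disrupted DES1, a homolog of the enzymes that make cysteine. RNA came from whole leaves and was hybridised to Affymetrix ATH1 arrays. A value is a log2 RMA value, so a difference of 1 is 2-fold, and the values are relative to the rest of each array. In whole-leaf RNA, more cells that carry a transcript and more transcript per cell cannot be told apart.

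Plant defensins are small secreted peptides whose fold is held by disulfide bridges between cysteines, and several of them inhibit fungal growth. PDF1.2 is the usual marker of the defence branch driven by jasmonate and ethylene together. In that branch ethylene stabilises the transcription factor EIN3, which turns on the activators ERF1 and ORA59, while MYC2 and its relatives drive a separate jasmonate branch and salicylic acid represses PDF1.2.

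Array medians lay between 5.78 and 5.81, and all deposited values between 3.63 and 14.63. Pairs of arrays correlated at 0.9939 to 0.9966 within a genotype and at 0.9869 to 0.9967 between genotypes. A 25S rRNA control stood at 10.2 on wild type 2 and between 5.49 and 6.20 elsewhere. For 1 pair of GAPDH controls the 3 prime signal less the 5 prime signal was -0.74 to -0.65 in the wild type and -0.57 to -0.32 in des1-1, while that of the other GAPDH pair overlapped (0.80 to 1.26 and 0.86 to 1.1), as did that of an actin pair (2.87 to 3.51 and 2.71 to 3.36). The part of these signals in the results below was not tested. Of the leaf photosynthesis markers 4 of 15 had a probe set annotated to 1 gene, which is what measured means below, and their mean was 13.31 to 13.36 on the wild-type arrays and 13.25 to 13.38 on the des1-1 arrays. The 3 measured root markers of 8 averaged 4.90 to 5.08 and 4.86 to 5.23, and the flower and seed markers were not analysed here. DES1 itself was not analysed here, and so gives no check of the labels.

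The probe sets of PDF1.2 and PDF1.2b rose about 5-fold in des1-1, and the other 3 members did not pass the test. That of PDF1.2b is of a type that can bind related transcripts, so the 2 rises may in part be 1 signal. The test was limma's, with adjusted p under 0.05 over all 22746 probe sets counted as a rise or a fall. Of all probe sets 0.387% passed, 0.33% as higher and 0.0572% as lower. That balance rested on single arrays, since the 75 higher and 13 lower calls became 219 and 546 without des1-1 1, and the lower calls became 0 without wild type 1, wild type 2 or des1-1 2. The members were chosen with earlier results of these data known, so 2 of 5 describes these genes and is not a rate.

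The PDF1.2 probe set (AT5G44420), for the antifungal peptide that serves as the branch's marker, read 8.56, 8.77 and 8.78 on the wild-type arrays and 10.84, 11.00 and 10.95 on the des1-1 arrays. The groups stood 2.06 apart at their nearest values, while the arrays of 1 genotype spanned 0.22 in the wild type and 0.16 in des1-1. Its mean rose from 8.70 ± 0.12 to 10.93 ± 0.08 (SD, n = 3 each), a log2 difference of 2.23 ± 0.09 SE and a 4.68-fold rise (95% interval 4.07 to 5.38, adjusted p = 6.92e-05 in limma). By the size of p it ranked 1 and by the size of the rise 5 among all probe sets. Over the 6 arrays it stood between the 82.98 and the 96.98 percentile of the array's probe sets.

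The PDF1.2b probe set (AT2G26020) read 8.02, 8.57 and 8.49 in the wild type and 10.76, 10.79 and 10.83 in des1-1. The wild-type arrays were the more spread, with wild type 1 lowest, whereas the des1-1 arrays lay within 0.07 of each other. The mean went from 8.36 ± 0.30 to 10.79 ± 0.04 (SD, n = 3 each), a log2 difference of 2.43 ± 0.14 SE and a 5.40-fold rise (95% interval 4.36 to 6.70, adjusted p = 0.000267 in limma). It ranked 3 both by p and by the size of the rise. This is the only member measured by an x_at probe set, a type that can bind related transcripts, so it may in part read PDF1.2 or other copies and is an uncertain measure of PDF1.2b alone.

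**Figure D1:**
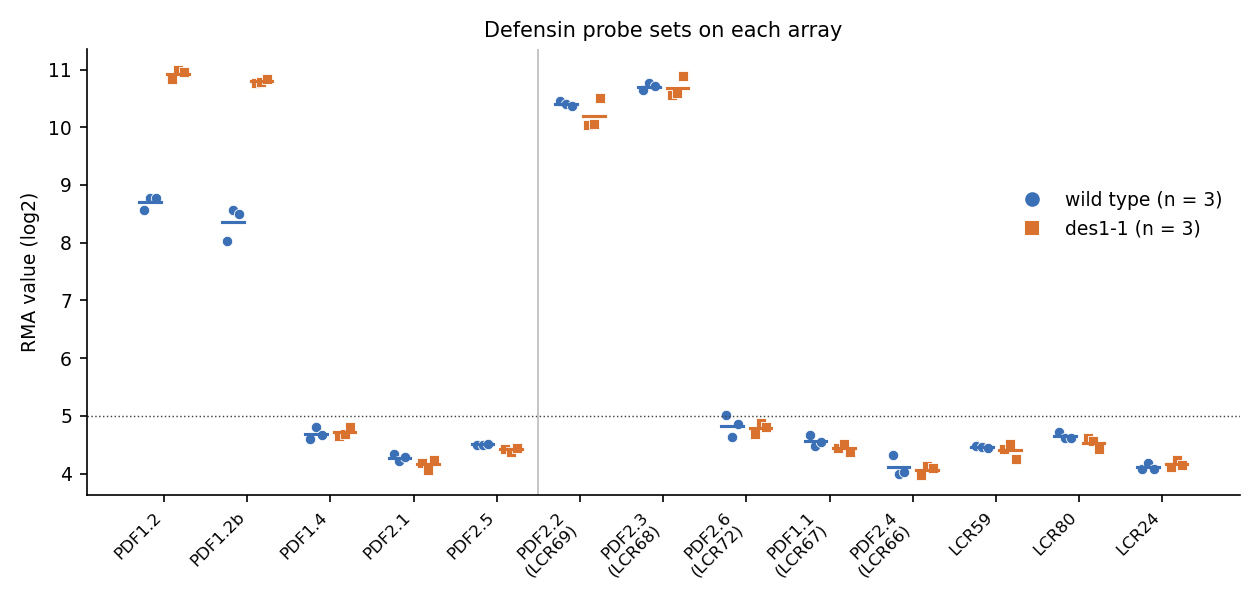
Log2 RMA values of 13 probe sets with a PDF or LCR symbol (x axis) on each array, circles for the wild type and squares for des1-1, with bars at the means (n = 3 each). The 5 PDF symbols stand left of the vertical line, and the dotted line at 5 marks the level under which a probe set is called dim. PDF1.2 and PDF1.2b lie between 8.02 and 8.78 in the wild type and between 10.76 and 11.00 in des1-1, whereas the other probe sets overlap or nearly overlap between genotypes.

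The distance between the PDF1.2b and the PDF1.2 probe sets was compared array by array, to see whether they changed by unequal amounts. PDF1.2b minus PDF1.2 was -0.54, -0.20 and -0.29 in the wild type and -0.08, -0.21 and -0.12 in des1-1. The gap was thus widest on wild type 1, and des1-1 2 fell within the wild-type values. The change in the gap was 0.21 on the log2 scale (-0.34 ± 0.18 against -0.14 ± 0.07, SD, n = 3 each), with a two-sided exact permutation p of 0.2, where 0.1 is the smallest p that 3 arrays against 3 allow. Without wild type 1 the change in the gap was 0.11. Unequal rises of the 2 probe sets were not resolved with these arrays.

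Both rises kept their call under each of the 16 alternatives run, with log2 differences from 2.16 to 2.27 for PDF1.2 (4.45-fold to 4.83-fold, adjusted p 5.53e-07 to 0.00905 in limma) and from 2.26 to 2.54 for PDF1.2b (4.80-fold to 5.81-fold, adjusted p 3.16e-06 to 0.0125). Leaving out wild type 2, which has the high 25S control, together with des1-1 3 left only 9 calls over all probe sets. PDF1.2, at 2.25 ± 0.11 SE, and PDF1.2b, at 2.52 ± 0.16 SE, were among these 9 (adjusted p = 0.00905 and 0.0125 in limma).

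**Figure D2:**
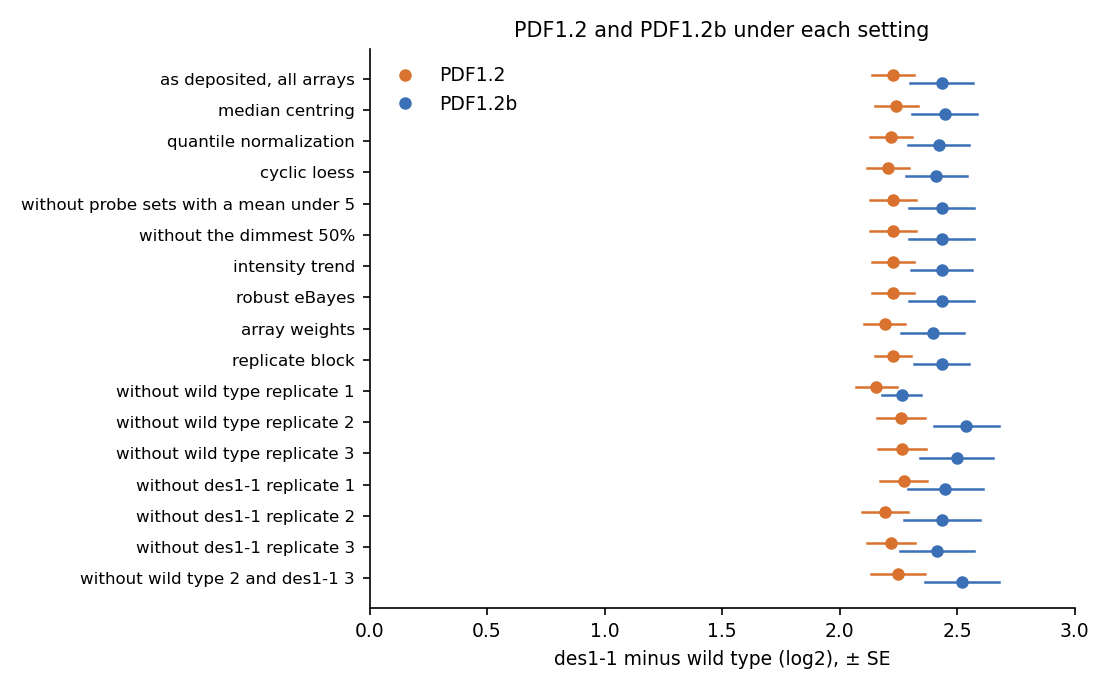
Log2 difference, des1-1 minus wild type, of PDF1.2 and PDF1.2b (points, with SE as bars) under the deposited values with all arrays and under 16 alternatives (y axis). PDF1.2 stays between 2.16 and 2.27 and PDF1.2b between 2.26 and 2.54.

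The 3 remaining members were dim, which here means a mean of the 6 arrays under 5, as were 34.6% of all probe sets. RMA compresses differences at this level. Of the 7869 dim probe sets, 260 reached an unadjusted p under 0.05 and 0 an adjusted one in limma, or 1 with an intensity trend. The array lower quartiles were 4.69 to 4.78.

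The PDF1.4 probe set (AT1G19610) read 4.59, 4.81 and 4.66 in the wild type and 4.65, 4.69 and 4.81 in des1-1, with the genotypes overlapping. Its log2 difference was 0.03 ± 0.09 SE (95% interval -0.17 to 0.23, adjusted p = 0.915 in limma). On the fold scale this interval reaches 1.17-fold at most, for a dim probe set whose differences are compressed.

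The PDF2.1 probe set (AT2G02120) read 4.33, 4.21 and 4.28 against 4.18, 4.06 and 4.23. The highest des1-1 value lay 0.02 above the lowest wild-type value. The log2 difference was -0.12 ± 0.08 SE (95% interval -0.29 to 0.06, adjusted p = 0.539 in limma).

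The PDF2.5 probe set (AT5G63660) read 4.50, 4.50 and 4.51 in the wild type and 4.43, 4.38 and 4.45 in des1-1. All des1-1 values lay below all wild-type values, by 0.05 at the nearest, as they did in 8.66% of all probe sets. With a log2 difference of -0.08 ± 0.07 SE (95% interval -0.24 to 0.07, adjusted p = 0.625 in limma) it did not pass the test. The median log2 difference of the 5 members was 0.03, against 0.00 over all probe sets.

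The 8 probe sets with an LCR symbol are the closest relatives on the array by name, and 5 of them carry a PDF name as a synonym. None of the 8 passed in limma, 0 had an unadjusted p under 0.05, against 15.6% of all probe sets, and 7 were lower and 1 higher in des1-1. Their median log2 difference was -0.06 (range -0.21 to 0.05). All 8 were measured by probe sets of the plain at type, and 6 were dim. Among all dim probe sets 260 of 7869 had an unadjusted p under 0.05 in limma, so 0 of 8 does not set these relatives apart.

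PDF2.2 (LCR69, AT2G02100) and PDF2.3 (LCR68, AT2G02130) were the 2 bright probe sets among them. PDF2.2 read 10.45, 10.40 and 10.37 in the wild type and 10.04, 10.05 and 10.50 in des1-1, a log2 difference of -0.21 ± 0.12 SE (95% interval -0.49 to 0.07, adjusted p = 0.477 in limma). PDF2.3 read 10.64, 10.76 and 10.71 against 10.55, 10.60 and 10.89, a difference of -0.02 ± 0.10 SE (95% interval -0.25 to 0.21, adjusted p = 0.945 in limma). In both, des1-1 3 stood above the other 5 arrays, and without it PDF2.2 differed by -0.36. Their intervals end at 1.05-fold and 1.15-fold at the upper side, and the interval of PDF1.2 starts at 4.07-fold.

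Of the dim relatives, PDF1.1 (LCR67), the defensin first known from seeds, read 4.66, 4.47 and 4.55 in the wild type and 4.45, 4.51 and 4.37 in des1-1, a log2 difference of -0.12 ± 0.08 SE. PDF2.4 (LCR66) and PDF2.6 (LCR72) differed by -0.05 ± 0.10 and -0.04 ± 0.11 SE. LCR59, LCR80 and LCR24 differed by -0.06 ± 0.08, -0.12 ± 0.08 and 0.05 ± 0.07 SE. The 3 des1-1 values of LCR80 lay below the wild-type values by 0.01, and the remaining 7 LCR probe sets overlapped between genotypes. Over all probe sets, 18.5% had no overlap in 1 direction or the other.

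**Figure D3:**
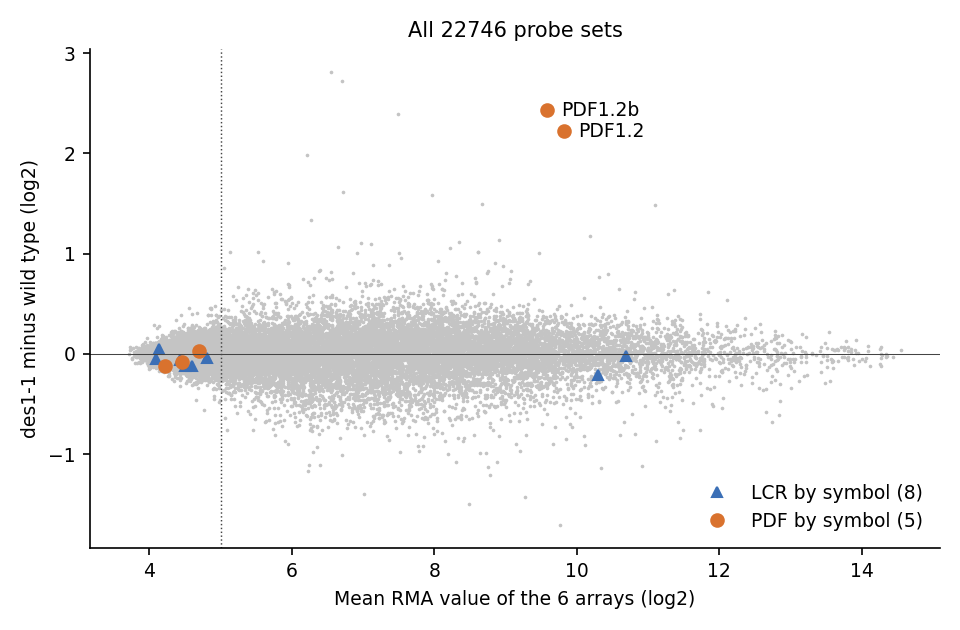
Log2 difference (y axis) against the mean of the 6 arrays (x axis) for all 22746 probe sets in grey, with the 5 PDF symbols as circles and the 8 LCR symbols as triangles, and the dotted line at a mean of 5. PDF1.2 and PDF1.2b stand at 2.23 and 2.43, while the other 11 marked probe sets lie between -0.21 and 0.05.

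Among the genes that set or share the PDF1.2 response, 8 of the 81 on a list of jasmonate, ethylene and salicylic acid genes had a probe set annotated to 1 gene. In limma 0 of these 8 passed, while the unadjusted p of JMT and GRX480 lay under 0.05 (2 of 8), a share near the 15.6% of all probe sets. Their median log2 difference was 0.04 (range -0.29 to 0.18), against 0.00 over all probe sets. The 13 listed receptor and repressor genes, ERF1 and ORA59 were not analysed here, so 8 genes do not describe the pathway.

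In hormone synthesis, JMT, which methylates jasmonic acid, read 5.22, 5.22 and 5.04 in the wild type and 5.10, 4.84 and 4.86 in des1-1, with the genotypes overlapping. Its log2 difference was -0.23 ± 0.10 SE (95% interval -0.45 to -0.01, adjusted p = 0.307 in limma). In ethylene signalling EIN3, the factor upstream of ERF1 and ORA59, read 9.67, 9.70 and 9.54 against 9.62, 9.36 and 9.05. The des1-1 arrays were the more spread, and the difference was -0.29 ± 0.14 SE (95% interval -0.60 to 0.02, adjusted p = 0.345 in limma), or -0.15 without des1-1 3.

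Of the regulators, GRX480, a glutaredoxin that is induced by salicylic acid and can repress PDF1.2, read 5.89, 5.81 and 5.74 in the wild type and 6.06, 5.97 and 5.96 in des1-1. It was the only gene of the 8 without overlap between genotypes, as were 9.87% of all probe sets in the higher direction. Its log2 difference was 0.18 ± 0.08 SE (95% interval 0.01 to 0.36, adjusted p = 0.289 in limma). The MYC2 relatives MYC3 and MYC4 differed by 0.14 ± 0.10 and 0.02 ± 0.08 SE.

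Among the other outputs, THI2.1, a jasmonate-induced thionin and so another antimicrobial peptide rich in cysteine, read 5.66, 5.13 and 5.45 against 5.40, 5.56 and 5.21. The genotypes overlapped, and the log2 difference was -0.02 ± 0.14 SE (95% interval -0.35 to 0.30, adjusted p = 0.962 in limma). BSMT1, which makes methyl salicylate and benzoate, was dim and differed by 0.05 ± 0.08 SE. In the salicylic acid branch SAG101, a partner of EDS1 in immune signalling, differed by 0.16 ± 0.14 SE (adjusted p = 0.667 in limma).

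**Figure D4:**
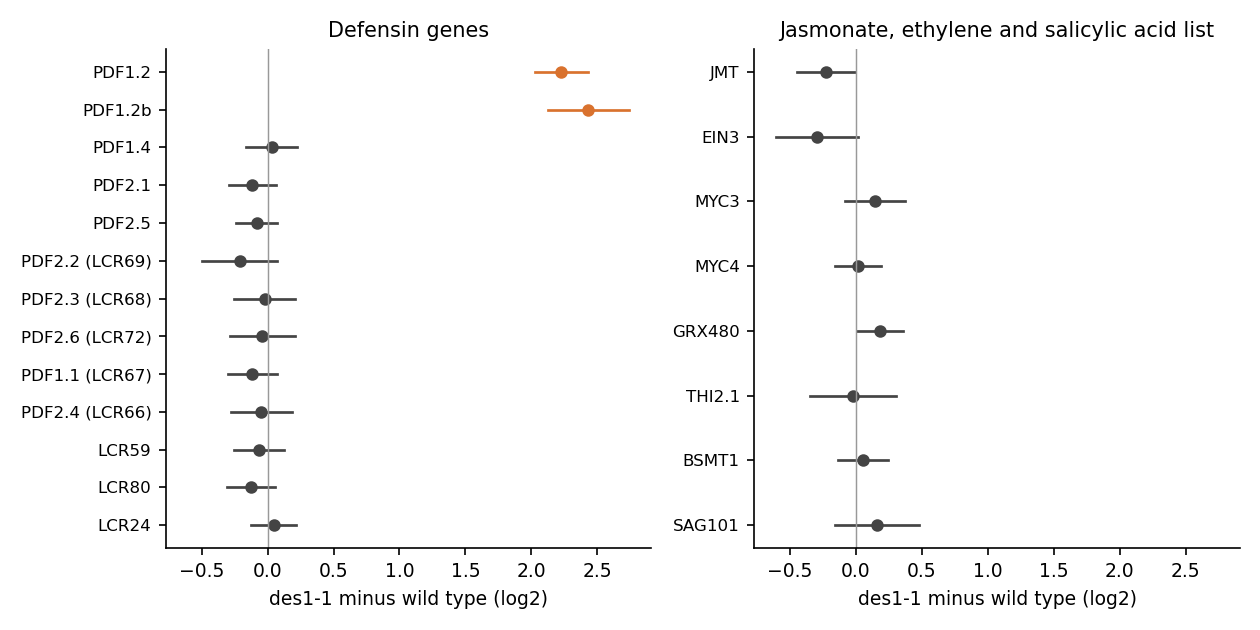
Log2 differences, des1-1 minus wild type, with 95% intervals from limma for the 13 PDF and LCR probe sets (left) and the 8 measured genes of the hormone list (right). Orange marks an adjusted p under 0.05, which PDF1.2 and PDF1.2b alone reached among those shown. The other differences lie between -0.29 and 0.18.

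On the chromosomes, PDF1.2 lies next to PDF1.2c on chromosome 5 and PDF1.2b next to PDF1.3 on chromosome 2 in the TAIR10.1 gene order. Of the 10 protein-coding loci on each side, 12 probe sets around PDF1.2 and 10 around PDF1.2b carried 1 gene name. In limma 0 of the 12 and 0 of the 10 passed, with 2 and 1 at an unadjusted p under 0.05, near or below the 15.6% of all probe sets. Around PDF1.2 the differences ran from -0.64 to 0.21, with AT5G44400, the locus 2 steps away, lowest at -0.64 ± 0.12 SE (adjusted p = 0.0745 in limma). Around PDF1.2b they ran from -0.19 to 0.40, with the highest for RTE1, a regulator of the ethylene receptor ETR1, at 0.40 ± 0.13 SE (adjusted p = 0.196 in limma). AT5G44400 and RTE1 were named after their values were seen. On chromosome 2, PDF2.1 lies next to PDF2.3, with PDF2.2 and PDF2.6 each 2 loci away.

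Likeness to PDF1.2 was measured as the Euclidean distance between log2 values on the 6 arrays, each probe set centred on its own mean. PDF1.2b lay at 0.37. Outside the family the 5 nearest probe sets with 1 gene were those of AT4G12490 (distance 0.68), AT4G16260 (0.89), AT2G05540 (0.93), AT3G19550 (1.16) and AT1G49500 (1.36), against a median distance of 2.74 over all probe sets. Probe sets without a single gene name also lay near, 1 of them closer than AT4G12490 and 6 closer than AT1G49500. The measure picks out probe sets that were higher in des1-1, since the genotype difference makes up most of the PDF1.2 profile. The sizes of these rises differed. In the order named, the log2 differences of the 5 were 1.98, 2.72, 1.61, 1.34 and 1.14, against 2.23 for PDF1.2.

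AT4G12490, a lipid-transfer-like gene of the AZI1 family, read 5.03, 5.34 and 5.30 in the wild type and 6.93, 6.97 and 7.72 in des1-1. AT4G16260, a putative beta-1,3-glucanase gene, read 5.48, 5.14 and 5.39 against 8.16, 7.71 and 8.31. Both varied more within des1-1 than the defensins, with SDs of 0.45 and 0.31 against 0.08 for PDF1.2 and 0.04 for PDF1.2b. The values of these genes correlated with those of PDF1.2 at 0.97 and 0.98 over the 6 arrays, which fall into the 2 genotypes. Both genes were picked for their nearness to PDF1.2 on the same arrays, so high correlations follow from that choice.

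**Figure D5:**
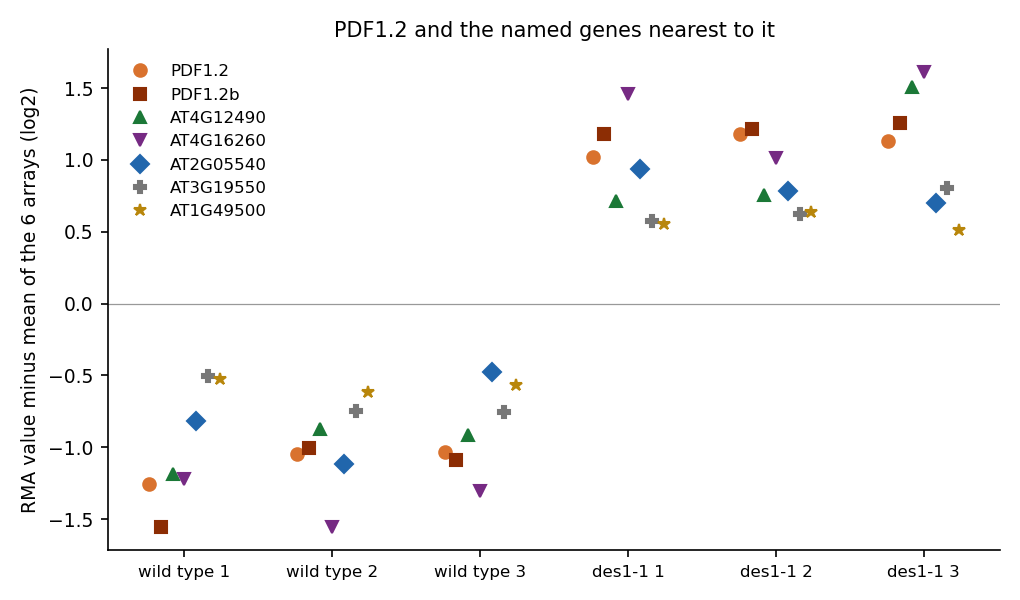
Log2 values centred on the mean of the 6 arrays (y axis) for PDF1.2, PDF1.2b and the 5 named genes nearest to PDF1.2, on each array (x axis). In each of the 7 probe sets all wild-type points lie below 0 and all des1-1 points above it, and AT4G12490 is highest on des1-1 3.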

How the data were processed

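Leaf RNA of 3 wild-type and 3 des1-1 samples was measured on ATH1 arrays. The authors deposited log2 values. The submitters' processing notes name RMA and affy, whose versions are not given in the sources used here. RMA corrects background, equalises the arrays' distributions and summarises the probes of each set. Arrays have no read depth, and their number limits precision. Of the probe sets, 64 controls were left out and 22746 tested with no filter. GEO's platform annotation gave 13513 of them 1 gene, 503 several and 8730 none. Loci came from the TAIR10.1 table, which matched 13436 of the 13513.

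The fit of des1-1 against wild type used limma 3.58.1 under R 4.3.3 (lmFit, eBayes, genotype as only term, two-sided, Benjamini-Hochberg). Its code was tried on simulated independent noise with added changes. That simulation held no effects shared across an array, so it does not vouch for the calls. SEs and intervals of differences are from the fit to the array values or, where named, its alternatives. Tables and plots used Python 3.11.15, pandas 2.3.3 and matplotlib 3.10.9. Members, lists and tests were chosen with earlier results of these data known. Named were all members, the measured hormone-list genes, and the 5 named probe sets nearest to PDF1.2; LCR genes were a comparison family. The chromosomal neighbours were added after values were seen. Alternatives changed normalization, the filter on dim probe sets, eBayes settings, the arrays included and their weights, and added a replicate block. No sequences were used here.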

Additional observations from a re-analysis of the deposited data

How the results depend on the processing

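PDF1.2 and PDF1.2b passed under each of the 16 alternatives, so the family count stayed at 2, and at 2 of 10 probe sets when genes with a PDF synonym were added, a setting chosen after seeing the data. The LCR and hormone-list counts stayed at 0. The calls over all probe sets, 88, became 151 with an intensity trend, 183 with a replicate block (94 higher, 89 lower), 20 to 765 with single arrays left out and 9 without wild type 2 and des1-1 3, a setting chosen after seeing the data. The cause of these shifts was not tested. Same-numbered arrays deviated with correlations of 0.17, -0.23 and 0.21, so the numbers were not taken to pair the arrays, and the replicate block changed no call named here. The gap between PDF1.2b and PDF1.2 changed by 0.11 to 0.28 with single arrays left out (exact p 0.1 to 0.3).

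AT4G12490 lost its call without wild type 1, 2 or 3 (adjusted p = 0.0515, 0.0551 and 0.0525), and AT2G05540 and AT3G19550 without wild type 2 and des1-1 3 (both 0.0537). With single arrays left out, the sign turned for differences near 0, none of which passed. These ran from -0.018 to 0.092 for PDF1.4, -0.118 to 0.0067 for LCR59, -0.103 to 0.057 for LCR66, -0.14 to 0.05 for LCR72 and -0.128 to 0.042 for LCR68. For MYC4 the range was -0.023 to 0.062, for THI2.1 -0.165 to 0.10 and for SAG101 -0.0083 to 0.277. LCR59 stood at 0.005 without wild type 2 and des1-1 3. EIN3 ranged from -0.43 (without des1-1 1) to -0.15 (without des1-1 3) and LCR69 from -0.36 to -0.13, with no call. Of the 13 probe sets with a PDF or LCR symbol 9 were dim, which limits what can be seen of them.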
